A study of Mus musculus with 8 samples.

Results

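Nascent transcription was compared between the livers of FXR knockout mice and of their Fxr-Flox controls, both given vehicle only, so that the comparison shows what transcription looked like without hepatic FXR before any agonist was added. It rests on 2 of the 8 libraries of the series, 1 GRO-seq library per genotype, and on 9683 of the 25124 gene rows of the deposited table. These are the rows of at least 300 bases whose mean over the 4 GRO-seq libraries was at least 0.5 RPKM, which scales reads by row length and library size. The FXR KO mice (genotype label "FXR KO", Fxr-LKO in the study) carried floxed Nr1h4 and the Albumin-Cre transgene, which drives deletion in hepatocytes, while the control (genotype label "WT") was the Fxr-Flox mouse without Cre. Both are labelled C57BL/6, and the study used males fasted overnight, whose age is not given in the labels. The vehicle is named DMSO in the titles and corn oil in the study. A second pair of GRO-seq libraries came from mice of the same genotypes killed 1 h after 30 mg/kg GW4064, a synthetic FXR agonist. It shares no library with the vehicle pair and is used below as a second look at the genotype, although its ratio also holds any response to the agonist. RNA-seq of C57BL/6 livers with and without GW4064, 2 libraries per treatment, was used to choose genes.

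FXR, encoded by Nr1h4, is a nuclear receptor for bile acids that binds DNA with RXR. In hepatocytes it raises transcription of Nr0b2, whose product SHP is a corepressor, and of the canalicular bile salt pump gene Abcb11, and through SHP and intestinal FGF19-type hormones it holds down the bile acid synthesis enzymes. GRO-seq labels RNA that engaged polymerases extend in isolated nuclei, so it measures transcription and not the amount of mature RNA. With whole livers, fewer cells of a type and less RNA per cell cannot be told apart.

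Each genotype has 1 library, so no difference below has a replicate check and none was tested. Rebuilt from the RPKM steps, the FXR KO vehicle library held 5141686 reads and the Fxr-Flox vehicle library 14173636, and the GW4064 libraries held 5069399 and 10593428. The plain ratio of FXR KO over Fxr-Flox rose with read density. Its median was -0.12 (log2) over the 3154 rows with 0.01 to 0.02 reads per base in the Fxr-Flox library, 0.11 over the 435 rows with 0.1 to 0.2, and 0.57 over the 69 rows with 0.5 or more. The running median of the ratio along density was therefore subtracted from each row, and "log2 ratio" below means this adjusted value, computed after adding 0.1 RPKM. The adjustment levels off at 0.30, so the 69 densest rows still had a median of 0.27, and small excesses of such rows in FXR KO cannot be told apart from density. Intervals are exact 95% intervals of the rebuilt read ratio on the same adjusted scale, without the added 0.1 RPKM, and they cover counting error only.

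**Figure D1:**
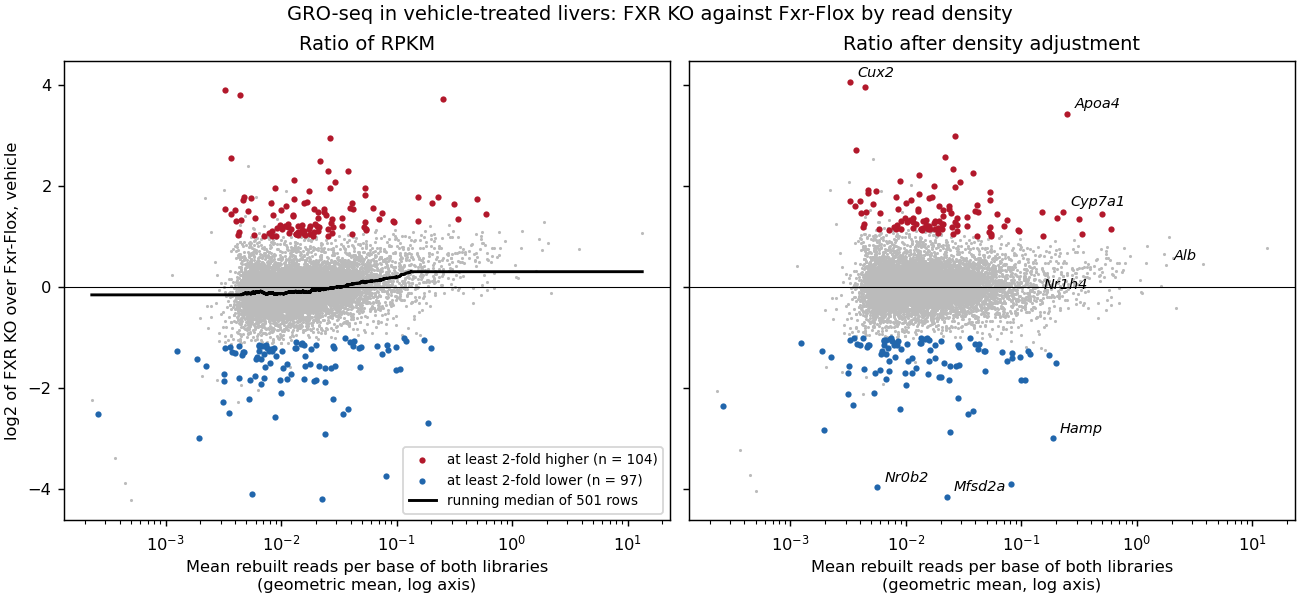
GRO-seq rows by read density (x axis, log scale) and by the log2 ratio of FXR KO over Fxr-Flox in vehicle-treated livers (y axis), before (left) and after (right) subtraction of the running median, drawn as a black line. Each point is 1 of 9683 rows, red points are the 104 rows at least 2-fold higher in FXR KO and blue points the 97 at least 2-fold lower. Before subtraction the cloud bends upward at high density.

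The row of Nr1h4 itself does not show the deletion. It stood at 15.1 RPKM in the Fxr-Flox and 16.7 RPKM in the FXR KO vehicle library (log2 ratio -0.15), and at 4.23 and 20.6 RPKM in the GW4064 pair. The row spans the whole gene on chromosome 10 of mm10, from 89454234 to 89506658, and annotated exons make up 4.39% of it, the longest of them 1.36%. Loss of an exon would therefore hardly lower this value, the deleted part is not given in the sources used here, and the row checks nothing about the label. The genotype below is therefore that of the library labelled FXR KO. The 9 other rows within 1 Mb of Nr1h4 had a median log2 ratio of 0.06. Among them Slc17a8, which encodes a vesicular glutamate transporter, was higher, at 1.11 and 2.37 RPKM (log2 ratio 1.13).

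Both libraries were liver. All 11 hepatocyte markers were measured and none differed by 2-fold, with summed levels of 767 RPKM in Fxr-Flox and 1276 RPKM in FXR KO and 4 of the 11 rows below the trend. Albumin (Alb), at 164 and 271 RPKM, had a log2 ratio of 0.43 at 2.32 reads per base in the Fxr-Flox library. Markers of Kupffer cells summed to 12.8 and 16.4 RPKM over 13 genes, those of sinusoidal endothelium to 26.2 and 26.7 over 14, those of stellate cells to 12.02 and 10.4 over 13 and those of cholangiocytes to 4.195 and 4.47 over 12, and none of their measured rows differed by 2-fold. Among 20 blood cell markers, summing to 30.6 and 28.3 RPKM, S100a8 and S100a9 were lower.

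Across the 9683 rows, 104 were at least 2-fold higher in the FXR KO vehicle library (1.07% of rows) and 97 at least 2-fold lower (1.00%). A row was counted where the plain and the adjusted ratio both reached 2-fold in the same direction and 1 of the libraries held at least 20 reads. Of the 97 lower rows, 10 passed the level filter only through the Fxr-Flox GW4064 library. Among them were Pitx3, Cyp4a12b, Ces1g, G6pc2, Ppl, Klhdc7b and Rnf152. Some higher rows, such as Cux2, Nipal1 and Dhcr7, passed the filter only through the FXR KO vehicle library. The middle of the distribution was narrow, with a median absolute log2 ratio of 0.20, and the largest differences were therefore far outside it. The 15 highest rows and 14 of the 15 lowest, among those with a mean of at least 1 RPKM and at least 50 reads, are drawn in the plot of levels by library.

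**Figure D2:**
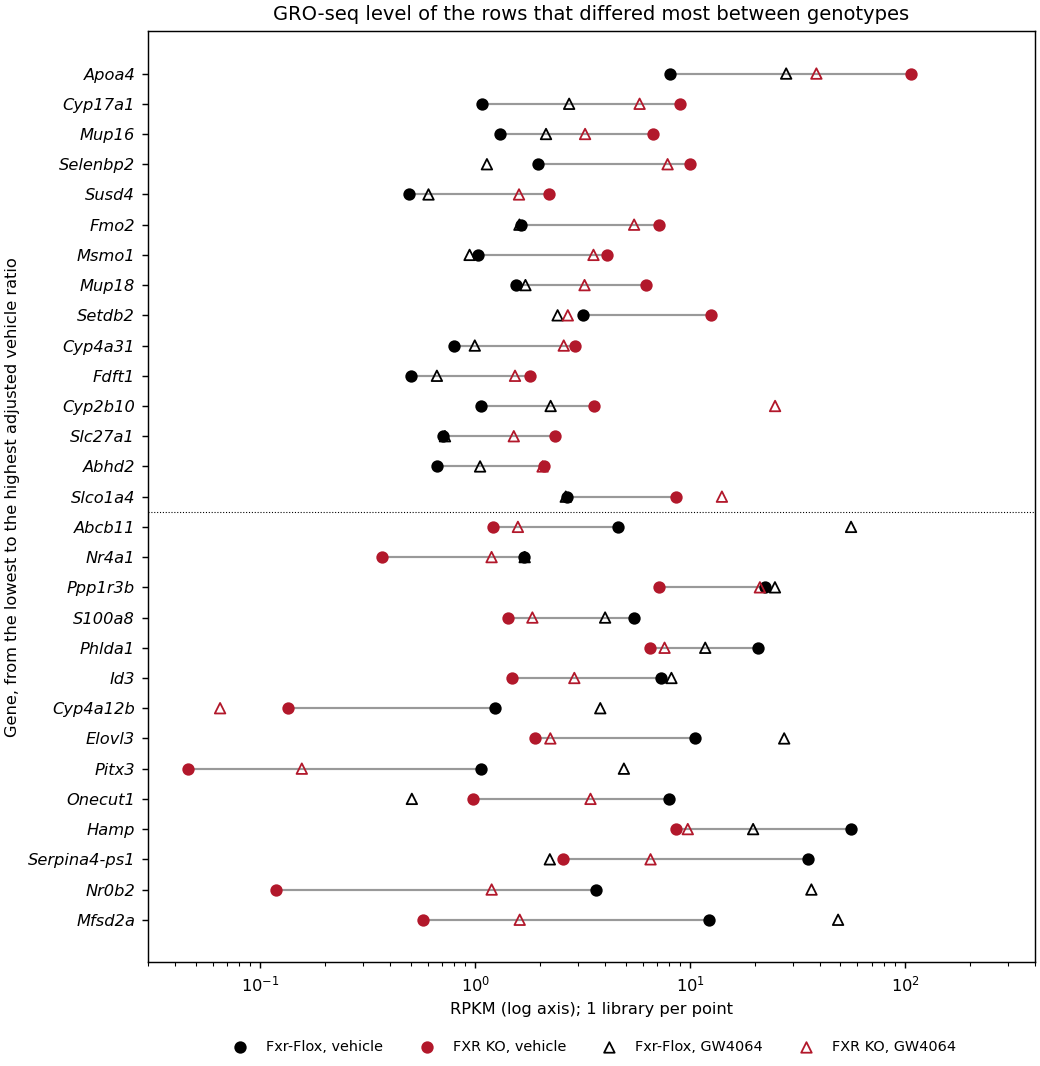
RPKM (x axis, log scale) of the 15 highest (top) and 14 of the 15 lowest (bottom) rows by adjusted vehicle ratio, 1 point per library. Filled circles are vehicle and open triangles GW4064, black is Fxr-Flox and red FXR KO, and the grey bar joins the vehicle pair. For Mfsd2a, Nr0b2, Elovl3 and Abcb11 both FXR KO libraries lie below both Fxr-Flox libraries, while for Onecut1 and Serpina4-ps1 the order turns between treatments.

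Mfsd2a and Nr0b2 were the lowest of all rows counted as 2-fold different. Mfsd2a, which encodes a transporter of lysophosphatidylcholine, stood at 12.3 RPKM (2490 reads) in Fxr-Flox and 0.570 RPKM (42 reads) in FXR KO. Its log2 ratio was -4.16, and -4.38 from the reads alone with an interval of -4.86 to -3.94. Nr0b2, on chromosome 4 from 133553376 to 133556686, stood at 3.65 RPKM in Fxr-Flox and 0.118 RPKM in FXR KO, from 171 and 2 reads. The log2 ratio was -3.97 with the added value and -4.82 from the reads alone, with an interval of -7.88 to -2.95. With GW4064 the same genes stood at 48.7 and 1.61 RPKM for Mfsd2a and at 36.6 and 1.19 RPKM for Nr0b2. Both FXR KO libraries thus lay under both Fxr-Flox libraries at each of the genes.

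Abcb11 stood at 4.61 RPKM (6819 reads) in Fxr-Flox and 1.204 RPKM (646 reads) in FXR KO without agonist, a log2 ratio of -1.79 with an interval of -1.99 to -1.76. With GW4064 the levels were 56.0 and 1.58 RPKM. Pitx3, a homeobox gene, stood at 1.07 and 0.0460 RPKM from 191 and 3 reads, and its log2 ratio from the reads was -4.37 with an interval of -6.66 to -2.80. With GW4064 Pitx3 stood at 4.92 and 0.156 RPKM, and it passed the level filter only through that Fxr-Flox library. Elovl3, an elongase of very long-chain fatty acids and the neighbour of Pitx3 on chromosome 19, was also lower in both pairs. It stood at 10.6 and 1.90 RPKM with vehicle and 27.4 and 2.23 RPKM with GW4064. The Elovl3 row ends at 46135694 and the Pitx3 row begins at 46135686, and strands are not separated. Whether reads in the Pitx3 row came from Elovl3 was not tested.

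Because FXR and RXR bind an inverted repeat of AGGTCA with 1 base between the copies, the annotated promoters were searched for AGGTCA, any base and TGACCT with up to 2 mismatches in the 12 fixed bases. This motif is its own reverse complement, so 1 scan covers both strands. RefSeq promoters of build GRCm38.p6 (mm10), from 250 bases before to 50 after the start, matched 7720 of the 9683 rows by symbol, and 1.26% of these held a match. It was present in 3 of the 69 lower rows with a promoter (Abcb11, Rdh9 and Saa4) and in 1 of the 79 higher rows (Maff). The Abcb11 stretch is printed because it holds 2 matches, in capitals, and because Abcb11 is a bile salt export gene that was lower in FXR KO. It lies at chr2:69342617-69342739 on the minus strand of GRCm38.p6 and ends at the base before the start.
Abcb11: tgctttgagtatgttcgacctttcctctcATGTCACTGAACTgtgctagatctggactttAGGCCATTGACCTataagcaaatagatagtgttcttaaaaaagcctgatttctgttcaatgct
The nearer match begins 63 bases before the start and has 1 mismatch, and the further one begins 94 bases before it and has 2. The single matches of the other lower rows are given to show how close they come to the repeat, in 5' to 3' order on the strand of the gene.
Rdh9 (chr10:127776326-127776338, plus strand, 1 mismatch): AGGTCAATGACCA
Saa4 (chr7:46732694-46732706, minus strand, 1 mismatch): AGGCCACTGACCT
Rdh9, a retinol dehydrogenase family gene, stood at 1.54 and 0.597 RPKM, and Saa4, which encodes a constitutive serum amyloid A, at 20.4 and 9.62 RPKM. The windows of Nr0b2 and Mfsd2a held no match, which says only that no stretch within 2 mismatches of the motif lies in those windows. A match is a description of the sequence and not a bound site.

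Known FXR-induced genes as a group did not follow Nr0b2 and Abcb11. Of 33 genes in the list, 30 were measured, none was 2-fold higher and those 2 were 2-fold lower, beside 1.00% of all rows. The median log2 ratio was -0.11 against 0.00 over all rows, and it turned to 0.07 with plain median centring. Further members below the trend were Mafg, encoding a small Maf protein (10.7 and 7.22 RPKM, log2 ratio -0.69), Gls2, a liver glutaminase (6.06 and 3.96 RPKM, -0.66), Osgin1, an oxidative stress response gene (9.06 and 6.47 RPKM, -0.60), and Atp8b1, a phospholipid flippase (0.998 and 0.642 RPKM, -0.46). Abcb4, the phospholipid export pump, stood at 9.91 and 9.89 RPKM (-0.17), Insig2 at 6.15 and 5.66 RPKM (-0.22), and Scarb1, the HDL receptor, at 2.59 and 2.86 RPKM (0.19). Fetub was the highest member, at 3.26 and 6.32 RPKM (0.89). With GW4064, 11 of the same 30 genes were 2-fold lower in FXR KO, against 3.58% of all rows, and none was higher.

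The genes that lie beside GW4064-induced enhancer RNAs in the study were chosen on livers of this series, so the list is not independent of the agonist. Of 14 genes 10 were measured, of which Mfsd2a and Nr0b2 were 2-fold lower, against 1.00% of all rows. Hes1, a repressor downstream of Notch, stood at 3.53 and 1.68 RPKM (log2 ratio -0.98). Grn, which encodes progranulin, stood at 8.18 and 11.7 RPKM (0.35) and Aldh1l1, a folate enzyme, at 11.4 and 10.7 RPKM (-0.27). Of the genes around the enhancer RNA Fincor, Pcsk5 had a log2 ratio of -0.48 and Rfk one of 0.13, while Gcnt1 and Prune2 stood under 0.1 RPKM in both vehicle libraries.

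Of the bile acid synthesis genes, Cyp7a1 and Cyp8b1 were higher in FXR KO. Cyp7a1, the rate-limiting enzyme of the classical pathway, stood at 14.4 RPKM (2045 reads) in Fxr-Flox and 49.8 RPKM (2565 reads) in FXR KO, a log2 ratio of 1.49 with an interval of 1.41 to 1.58. With GW4064 it stood at 3.83 and 55.4 RPKM. Cyp8b1, the 12-alpha-hydroxylase that sets the share of cholic acid, stood at 31.9 and 106 RPKM (log2 ratio 1.44, interval 1.31 to 1.57), and at 48.1 and 74.8 RPKM in the GW4064 pair. The FXR KO libraries were thus above the Fxr-Flox libraries at both genes, under either treatment. At 0.204 and 0.452 reads per base in Fxr-Flox these rows were dense, and 0.30 had been subtracted from each.

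The rest of the pathway stayed closer. Of 18 measured genes of 20, Cyp7a1 and Cyp8b1 were 2-fold higher and Cyp2c70 was lower, against 1.07% and 1.00% of all rows. Cyp2c70, which makes muricholic acids in mice, stood at 3.54 and 1.54 RPKM (log2 ratio -1.08). The GW4064 pair had the opposite order (1.83 and 3.40 RPKM). Cyp27a1 and Cyp7b1 of the alternative pathway had log2 ratios of -0.08 each, Hsd3b7, which follows Cyp7a1 in the classical pathway, one of -0.34, the conjugating enzyme gene Baat one of 0.06 and the bile acid ligase gene Slc27a5 one of 0.51. The list median was -0.04 and turned to 0.10 without the density adjustment.

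Among bile acid and anion transporters, 15 of 19 genes were measured. Of these 1 was 2-fold lower and 1 higher, against 1.00% and 1.07% of all rows. The lower one was Abcb11. The higher one was Slco1a4, a sinusoidal uptake carrier for organic anions, at 2.66 and 8.61 RPKM (log2 ratio 1.61) and at 2.64 and 14.04 RPKM with GW4064. The main bile salt uptake carrier Slc10a1 (NTCP) stood at 11.5 and 13.8 RPKM (0.04), Slco1b2 at 27.8 and 28.6 RPKM (-0.26) and the canalicular conjugate pump Abcc2 at 28.8 and 29.4 RPKM (-0.27). Abcc3, a basolateral export pump, had a log2 ratio of 0.42. The alternative export carriers Slc51a and Slc51b were too low to measure, at 0.132 RPKM or less in the Fxr-Flox vehicle library.

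Genes of cholesterol synthesis and uptake were higher in FXR KO as a group. All 20 measured members lay above the trend, 6 of them 2-fold higher and none lower, against 1.07% and 1.00% of all rows. The median log2 ratio was 0.70, and it was 0.82 in the GW4064 pair, where 9 of the 20 were 2-fold higher, against 1.97% of all rows. Of all 26 genes in the table, including those under the filter, 24 had the higher RPKM in FXR KO, 1 in Fxr-Flox, and Npc1l1 was at 0 in both. Among them were Msmo1 (1.03 and 4.09 RPKM, log2 ratio 2.00), Dhcr7 (0.266 and 1.15 RPKM, 1.91), Fdft1 (0.504 and 1.80 RPKM, 1.78), Fdps (0.893 and 2.51 RPKM, 1.51) and Sqle (0.408 and 1.196 RPKM, 1.45).

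These span the pathway. Fdps makes farnesyl diphosphate, Fdft1 and Sqle are the squalene steps, and Msmo1 and Dhcr7 act late on sterols. Cyp51, the lanosterol demethylase gene, stood at 0.620 and 1.34 RPKM (log2 ratio 1.12) and was just inside 2-fold on the plain ratio. Insig1, whose product retains the SREBP complex in the endoplasmic reticulum, had a log2 ratio of 0.71. Srebf2, which encodes the transcription factor of the pathway, was near the trend (0.21). The sterol rows were sparse, with 93 to 234 Fxr-Flox reads at the 6 called genes, and the 982 rows under 0.01 reads per base, among them Dhcr7, Fdft1 and Sqle, had a median of 0.16 after adjustment.

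**Figure D3:**
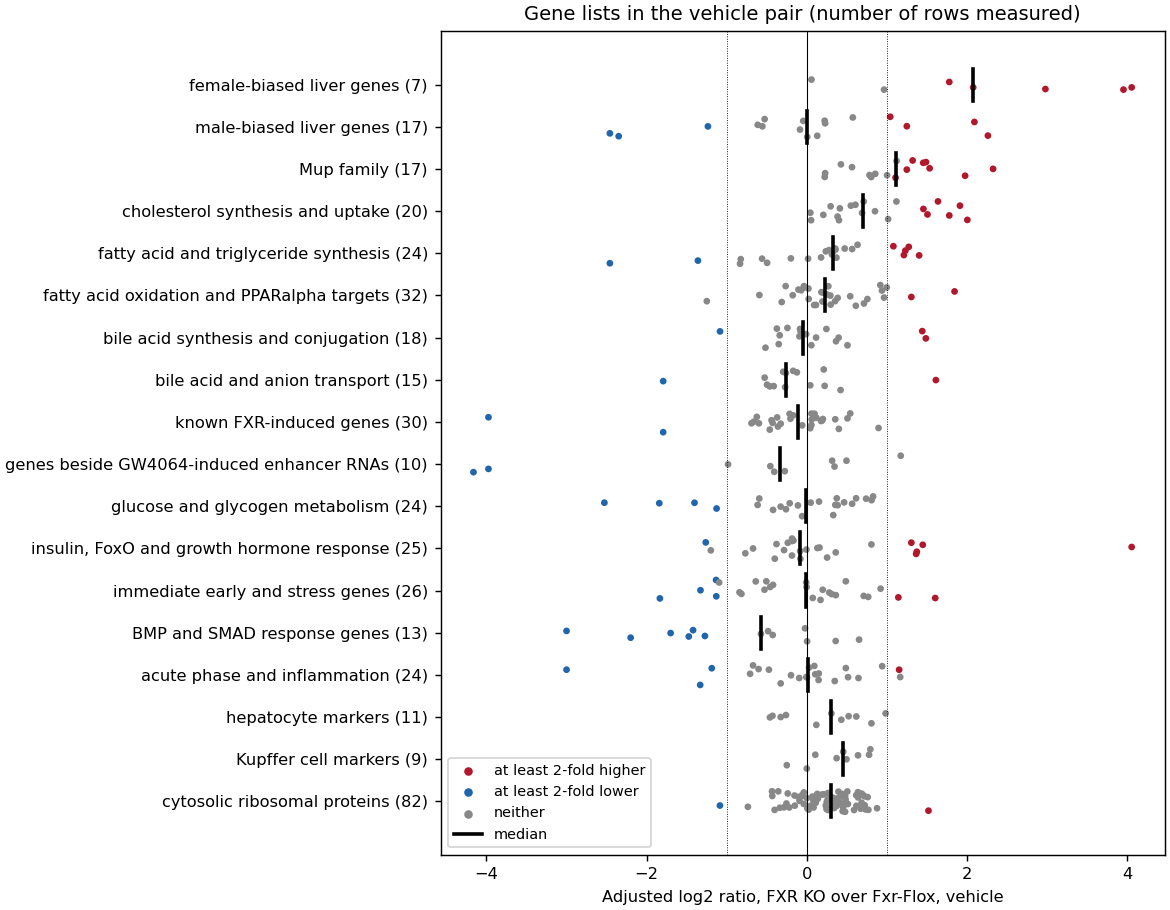
Adjusted log2 ratio of FXR KO over Fxr-Flox in vehicle (x axis) for each measured row of 18 gene lists (y axis, with the number of rows), the black bar marking the median and dotted lines marking 2-fold. Points past the lines that stay grey missed 2-fold on the plain ratio or held under 20 reads. The sterol genes lie on the right of 0 throughout, while FXR-induced genes centre near 0 with Nr0b2 and Abcb11 far to the left.

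Several female-biased liver genes were high in FXR KO. Cux2, a homeobox repressor that is female-specific in mouse liver, stood at 0.0630 RPKM (168 reads) in Fxr-Flox and 2.32 RPKM (2237 reads) in FXR KO. The log2 ratio was 4.05 with the added value and 5.36 from the reads, with an interval of 5.13 to 5.59. In the GW4064 pair it stood at 0.0810 and 0.840 RPKM. Nipal1, a magnesium transporter gene, stood at 0.1 and 2.67 RPKM with vehicle and at 0.211 and 1.00 RPKM with GW4064. Cux2 also varied among the 4 RNA-seq libraries of C57BL/6 livers, from 0.0600 to 1.604 RPKM, so its level differed widely between libraries of 1 genotype.

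Cyp17a1, a steroid hydroxylase, stood at 1.08 and 8.97 RPKM (log2 ratio 2.98), the flavin monooxygenase Fmo2 at 1.64 and 7.16 RPKM (2.08) and Cyp2b10, a CAR-induced cytochrome P450, at 1.06 and 3.58 RPKM (1.78). These 5 genes were 2-fold higher, and none of the list was lower, among the 7 of 25 female-biased genes that passed the filter. Because a gene silent in male controls passes mainly through the library in which it is high, this count carries no weight by itself. Over all 25 genes the RPKM was higher in FXR KO for 14, lower for 9 and equal for 2. Cyp2b9 went the other way, at 0.780 and 0.209 RPKM, and Cyp3a41a and Cyp3a41b were at 0 in both libraries. Xist stood at 0.0860 and 0.153 RPKM and the Y-linked Ddx3y at 2.94 and 3.29 RPKM, so both libraries were male by these genes.

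Male-biased genes were split. Of 17 measured genes of 20, 3 were 2-fold lower and 4 higher, against 1.00% and 1.07% of all rows. The median log2 ratio was 0.01. The lower ones were Elovl3 (log2 ratio -2.46), Cyp4a12b (1.24 and 0.135 RPKM, -2.35) and the peroxisomal nudix hydrolase Nudt7 (7.44 and 3.24 RPKM, -1.23). Cyp4a12b was also lower with GW4064, at 3.82 and 0.0650 RPKM, while its near copy Cyp4a12a stood at 1.62 and 1.53 RPKM with vehicle. Reads shared by these close copies could be assigned to either. The higher ones were Selenbp2 (1.96 and 10 RPKM, 2.26), Susd4 (0.493 and 2.20 RPKM, 2.09), Mup1 and Serpina1e. Growth hormone signalling genes gave Cish at 3.12 and 1.14 RPKM (-1.26), and Bcl6 and Stat5b at log2 ratios of 0.13 and -0.17. Igf1 stood at 18.0 and 9.26 RPKM (-1.198), under 2-fold on the plain ratio and so not counted, and its log2 ratio in the GW4064 pair was 0.76.

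The Mup genes on chromosome 4, which encode pheromone-binding major urinary proteins, were looked at after their values were seen. All 17 measured rows of 22 lay above the trend and 8 were 2-fold higher, against 1.07% of all rows, with a median of 1.11. The group was picked for such members, so its count supports nothing. Mup16 stood at 1.30 and 6.74 RPKM (log2 ratio 2.32) and Mup18 at 1.55 and 6.26 RPKM (1.97), while Mup3 (60.8 and 87.6 RPKM, 0.23) and Mup20 (9.18 and 12.2 RPKM, 0.22) were near the trend. For the GW4064 pair the family median was 0.33 and 2 rows were 2-fold higher, against 1.97% of all rows. These genes are near-identical copies, and how the reads were split among them is not known.

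Apolipoprotein and lipid genes were led by Apoa4, an apolipoprotein of triglyceride-rich particles that the liver makes under fasting and steatosis. It stood at 8.02 RPKM (297 reads) in Fxr-Flox and 107 RPKM (1436 reads) in FXR KO, a log2 ratio of 3.42 with an interval of 3.26 to 3.62, the highest of all rows with a mean of at least 1 RPKM and 50 reads. With GW4064 the levels were 27.95 and 38.6 RPKM (0.30). Of the other 13 apolipoprotein rows none was 2-fold higher. Apoa1 stood at 142 and 345 RPKM (0.98) and Apoe at 178 and 325 RPKM (0.57), both above 2 reads per base in Fxr-Flox, where the adjustment is incomplete.

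Fatty acid synthesis genes moved apart. Of 24 measured genes, 5 were 2-fold higher and 2 lower, against 1.07% and 1.00% of all rows. The fatty acid synthase gene Fasn stood at 2.00 and 4.92 RPKM (log2 ratio 1.27) and the desaturase genes Fads1 and Fads2 at 4.03 and 9.21 RPKM (1.08) and 5.14 and 13.1 RPKM (1.21). The acetyl-CoA carboxylase gene Acacb (1.23) and the elongase gene Elovl5 (1.40) were the other higher ones. Scd1, the stearoyl-CoA desaturase gene, was lower, at 29.4 and 14.1 RPKM (-1.36), as was Elovl3. Fads1, Fads2 and Fads3 lie in 1 stretch of chromosome 19 and were all 2-fold higher. Srebf1, the lipogenic regulator, had a log2 ratio of 0.47 and Mlxipl, which encodes ChREBP, one of -0.83. The fatty acid transport protein gene Slc27a1 was higher, at 0.709 and 2.34 RPKM (1.71), and the hydrolase gene Abhd2 stood at 0.665 and 2.09 RPKM (1.65). The lipid droplet gene Plin4 was lower, at 14.4 and 6.42 RPKM (-1.32).

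Genes of fatty acid oxidation and PPARalpha lay slightly above the trend, with a median log2 ratio of 0.23. Among 32 genes 2 were 2-fold higher, against 1.07% of all rows. These were Cyp4a31 (0.799 and 2.90 RPKM, 1.84) and Fgf21, a fasting hormone gene with 24 and 21 reads (1.30). Of the same cytochrome family as Cyp4a31, Cyp4a10 (0.92) and Cyp4a14 (0.61) were above the trend but under 2-fold. Cpt1a (0.39) and Ppara itself (-0.59) stayed within 2-fold.

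Glucose and glycogen genes had 4 lower members and no higher one among 24, against 1.00% and 1.07% of all rows. Ppp1r3b and Ppp1r3c, which target protein phosphatase 1 to glycogen, stood at 22.2 and 7.17 RPKM (-1.84) and at 6.80 and 3.15 RPKM (-1.13), with log2 ratios of -0.40 and -0.02 in the GW4064 pair. G6pc2 stood at 0.553 and 0.121 RPKM, from 63 and 5 reads, and passed the filter on low values only through the Fxr-Flox GW4064 library at 25.2 RPKM. The gluconeogenic genes Pck1 (107 and 181 RPKM, 0.47) and G6pc (23.3 and 18.7 RPKM, -0.61) were within 2-fold, and the list median was -0.01.

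Several genes that insulin or nutrient stress sets were higher in the FXR KO vehicle library. Igfbp1, a secreted binder of insulin-like growth factors that insulin represses, stood at 13.4 and 42.7 RPKM (log2 ratio 1.36), Igfbp2 at 4.199 and 12.6 RPKM (1.45) and the mTORC1 inhibitor gene Ddit4 at 2.42 and 6.41 RPKM (1.37). In the GW4064 pair all of them were lower in FXR KO, at 27.4 and 19.9, 46.4 and 7.24, and 4.37 and 3.11 RPKM. Of 25 genes in the insulin, FoxO and growth hormone list 5 were higher, Cux2 and Fgf21 among them, and 1 was lower. Over all rows the shares were 1.07% and 1.00%. The list median was -0.08 and turned to 0.07 with median centring. The insulin receptor gene Insr (0.16) and the substrate genes Irs1 (-0.40) and Irs2 (0.25) were near the trend.

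Onecut1, which encodes the hepatocyte transcription factor HNF6, was among the lowest rows at 8.01 and 0.975 RPKM (log2 ratio -2.87), and was the other way round with GW4064, at 0.507 and 3.44 RPKM. The serpin pseudogene Serpina4-ps1 stood at 35.4 and 2.56 RPKM with vehicle and at 2.22 and 6.54 RPKM with GW4064. In RNA-seq of C57BL/6 livers the vehicle libraries were close to each other, at 6.75 and 6.13 RPKM for Serpina4-ps1 and 0.893 and 0.924 RPKM for Onecut1. The GW4064 libraries were further apart, at 2.97 and 15.9 RPKM and at 0.609 and 1.66 RPKM.

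A group of BMP and SMAD response genes, noticed after the values were seen, was low in FXR KO. Hamp, which encodes the iron hormone hepcidin, stood at 56.1 RPKM (1321 reads) in Fxr-Flox and 8.55 RPKM (73 reads) in FXR KO, a log2 ratio of -2.998 with an interval of -3.37 to -2.67. The inhibitor-of-DNA-binding genes gave Id3 at 7.33 and 1.49 RPKM (-2.20), Id1 at 2.62 and 0.671 RPKM (-1.70) and Id2 at 19.3 and 9.41 RPKM (-1.27). The inhibitory SMAD gene Smad7 stood at 3.32 and 1.05 RPKM (-1.47) and Smad9 at 2.35 and 0.745 RPKM (-1.42). Of 13 measured genes 6 were 2-fold lower and none higher, against 1.00% and 1.07% of all rows. But the group was picked for such members and its count supports nothing. In the GW4064 pair Hamp, Id3 and Smad7 were again 2-fold lower, while Smad9 stood at 0.374 and 0.786 RPKM. Smad6 (-0.48), Tfr2 (0.00) and Tmprss6 (-0.02) were closer to the trend.

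Immediate early and inflammatory genes were mixed. Nr4a1, an orphan nuclear receptor gene, stood at 1.68 and 0.367 RPKM (log2 ratio -1.83), Fos at 1.25 and 0.402 RPKM (-1.33) and Klf4 at 1.52 and 0.583 RPKM (-1.13), while Gadd45b was higher, at 1.30 and 3.96 RPKM (1.602). In all, 4 of 26 were lower and 2 higher, against 1.00% and 1.07% of all rows, with a median of 0.00. Of 24 acute phase genes, Hamp, Saa4 and Steap4 were lower, beside the same share of all rows. Haptoglobin (Hp) was higher, at 41.9 and 115 RPKM (1.15). Hp fell under 2-fold with narrower running medians and with quantile normalization. The neutrophil genes S100a8 (5.50 and 1.41 RPKM, 75 and 7 reads) and S100a9 (2.28 and 0.566 RPKM, 100 and 9 reads) were lower in FXR KO, as was Retnlg, while Ngp was higher, at 1.34 and 3.10 RPKM, so neutrophil genes did not move together.

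The counts of the remaining lists stand beside 1.07% of all rows higher and 1.00% lower. Xenobiotic metabolism had 2 of 35 genes higher (Cyp2b10 and Cyp2c54, the latter at 2.84 and 8.42 RPKM) and 1 lower (Ces1g, at 0.810 and 0.173 RPKM). The urea cycle and amino acid list had Cth higher and Aass, the first enzyme of lysine breakdown, lower (11.9 and 5.24 RPKM, -1.29) among 32 genes. Complement and coagulation had 1 of 35 lower, the circadian clock 2 of 16 lower (Usp2 and Nfil3), heat shock genes 1 of 28 each way, and LXR targets 1 of 17 each way (Cyp7a1 and Lipg). NRF2 genes (16), interferon-stimulated genes (13), proliferation genes (6) and matrix genes (6) had none. Periportal hepatocyte markers (13) had none, with a median of -0.42 that turned to 0.32 among rows under 0.05 reads per base, and pericentral ones 1 of 11 lower (Tbx3). Cytosolic ribosomal protein genes had 1 of 82 each way, with a median of 0.30 that was 0.095 among rows under 0.05 reads per base.

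A few neighbouring rows differed together. On chromosome 14 from 59380833 to 59440880, Setdb2, which encodes a SET domain protein, stood at 3.16 and 12.5 RPKM (log2 ratio 1.88) and the adjacent Phf11c at 2.69 and 8.07 RPKM (1.51). The overlapping row Gm45935 (1.73) shares their reads. In the GW4064 pair Setdb2 stood at 2.42 and 2.69 RPKM, and only the FXR KO vehicle library was high. Other such stretches held Igfbp1 and Igfbp3, Capn8 and Susd4, and, among lower rows, Id3 and Asap3, Elovl3 and Pitx3, G6pc2 and Abcb11, and S100a8 and S100a9. Genes on opposite strands at 1 place could not be separated in this table: 182 rows nested in a host on the other strand stood at a median of 0.99 of the host's level in the Fxr-Flox vehicle library, and 93 on the same strand at 1.08.

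The GW4064 pair gives the genotype ratio in other mice of the same genotypes. Its ratio also holds the response of the Fxr-Flox liver to the agonist. A row shared by both pairs is therefore not a plain repeat of the vehicle difference. Of the 104 higher rows, 34 were also 2-fold higher there (0.351% of all rows), 4 were 2-fold lower and 66 were neither. Of the 97 lower rows, 33 were 2-fold lower in both pairs (0.341% of all rows), 5 were 2-fold higher with GW4064 and 59 were neither. Of the same 97, 10 had passed the level filter only through the Fxr-Flox GW4064 library, where they were high. For these 10 the filter favoured a lower ratio in the GW4064 pair, so they carry no weight as repeats. Some of the higher rows, among them Cux2, Nipal1 and Dhcr7, passed it only through the FXR KO vehicle library, where they were high. For such rows the filter favoured a higher vehicle ratio, so they too carry no weight as repeats. How many of the rows higher in both pairs are of this kind was not counted. In that pair 191 rows were higher (1.97%) and 347 lower (3.58%), so the shared rows were 17.8% and 9.51% of its calls. The median log2 ratio in the GW4064 pair was 0.58 over the 104 rows and -0.65 over the 97. The pairs share the genotypes and the lower depth of the FXR KO libraries.

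**Figure D4:**
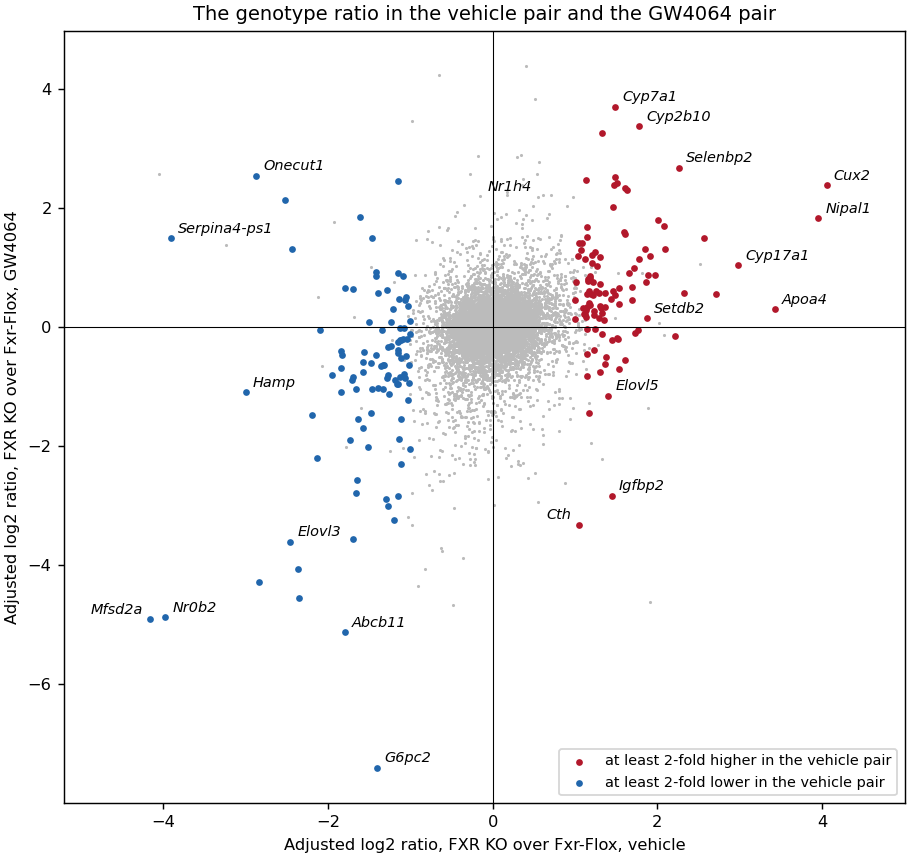
Adjusted log2 ratio of FXR KO over Fxr-Flox for 9683 rows in vehicle (x axis) and in GW4064 (y axis), 1 point per row, with rows at least 2-fold higher (red) or lower (blue) in the vehicle pair. Mfsd2a, Nr0b2, Abcb11 and G6pc2 lie low in both, Cux2, Cyp7a1 and Cyp2b10 high in both, and Onecut1, Igfbp2 and Cth on opposite sides.

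Genes that respond to the agonist were then followed in livers that had not received it. In RNA-seq of C57BL/6 livers, of 9588 rows that passed both filters, 119 had both GW4064 values above both vehicle values and a ratio of means of at least 2 (1.24%), and 35 were lower in the same way (0.365%). In the vehicle GRO-seq pair 16 of the 119 were 2-fold lower in FXR KO, against 1.00% of all rows, and 5 were higher, against 1.07%. Their median log2 ratio was -0.22, and 75 of 119 were below 0, against 4813 of all 9683 rows. Of the 119, 23 passed the level filter only through the Fxr-Flox GW4064 library, among them Cyp4a12b, G6pc2, Klhdc7b, Ppl and Rnf152, which were 5 of the 16 lower genes. Among the 96 others, 11 were lower and 5 higher, against 0.908% and 1.09% of the 9584 rows that passed without that library, and the median was -0.24. Of the 35 genes lowered by the agonist, 1 was 2-fold lower and none higher, and the median was -0.01. In the GW4064 pair 101 of the 119 were 2-fold lower, against 3.58% of all rows, with a median of -1.77. Of the 35, 17 were higher, against 1.97% of all rows, with a median of 1.06. The 119 include the 23 genes that passed only through the Fxr-Flox GW4064 library, for which the filter favoured a lower ratio in this pair.

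The 16 genes included Nr0b2, Mfsd2a, Abcb11, Aass, Cyp4a12b, G6pc2, Phlda1 (20.7 and 6.50 RPKM) and Rnf152 (0.849 and 0.161 RPKM). The 5 that were higher in FXR KO were Gadd45b, Igfbp2, Gdf15, Maff and Cth, of which Igfbp2, Gdf15 and Cth were 2-fold lower in the GW4064 pair. The genes raised most by GW4064 in RNA-seq were low in both vehicle GRO-seq libraries. Clic3 stood at 0.110 and 0.605 RPKM from 3 and 6 reads, Cyp26a1 at 0.549 and 0.209 RPKM from 29 and 4 reads, Thrsp at 1.05 and 0.505 RPKM (69 and 12 reads) and Paxx at 1.49 and 0.848 RPKM (34 and 7 reads). Their counting intervals were wide, from -1.97 to -0.06 for Thrsp and from -2.10 to 0.52 for Paxx.

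**Figure D5:**
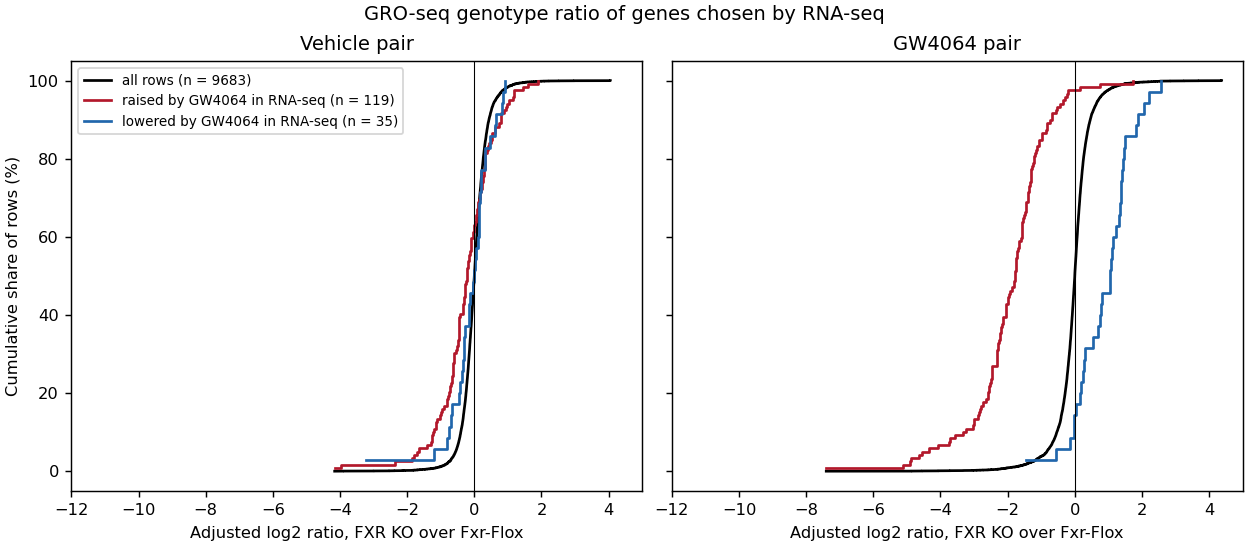
Cumulative share of rows (y axis, percent) by adjusted log2 ratio of FXR KO over Fxr-Flox (x axis) in the vehicle pair (left) and the GW4064 pair (right), for all 9683 rows (black), 119 genes raised (red) and 35 lowered (blue) by GW4064 in RNA-seq. With vehicle the red curve starts left of the black one, has a median of -0.22 and crosses it above 0, and with GW4064 it lies far left, with a median of -1.77.

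Differences were spread over the genome, but calls were more frequent among short rows than among long ones. The share of rows that differed by 2-fold was highest on chromosome 14, at 4.31% of 348 rows, and lowest on chromosome 2, at 0.677% of 739, among chromosomes with at least 100 rows. Of the 358 rows longer than 150000 bases 5 were called, and of the 142 rows under 1000 bases 9 were. Among the 1536 rows of 1000 to 5000 bases 30 were higher and 37 lower. The 1578 rows of 50000 to 150000 bases held 14 higher and 7 lower ones. Sparse rows gave more higher than lower calls, with 26 and 6 among the 982 rows under 0.01 reads per base in Fxr-Flox. Dense rows gave more lower ones, with 9 and 4 among the 189 rows at 0.2 to 0.5. These classes are cut on the Fxr-Flox vehicle library, the denominator of the ratio. That choice and the level filter favour such splits by construction, so the splits are no result about sparse or dense rows.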

How the data were processed

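GRO-seq measured nascent RNA in liver nuclei, with 1 library each for Fxr-Flox and FXR KO mice given vehicle or GW4064, and RNA-seq gave 2 libraries per treatment. Per the study's methods and the submitters' notes, the authors mapped reads to mm10 with STAR 2.7.3a and quantified genes with HOMER, and the notes also name bcl2fastq and FastQC. The deposited values, made by the authors, are RPKM over whole rows, introns included (row length equals end minus start in 24932 of 25124 rows). The study's figure legend gives more mice per GRO-seq group than the 1 library per group used here, and whether livers were pooled is not given in the sources used here.

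From these values, reads were rebuilt as RPKM times length times the total that made short rows whole, and 100% of the checked values came out whole within 0.15. Listed rows held 89.2% to 90.0% of reads. A single read over 1000 bases equals 0.0706 RPKM in the Fxr-Flox vehicle library and 0.194 RPKM in the FXR KO vehicle library.

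The 9683 rows that passed the length and level filters (300 bases, 0.5 RPKM on average in GRO-seq) were compared as log2((FXR KO + 0.1)/(Fxr-Flox + 0.1)) minus a running median over 501 rows ordered by mean read density. Rows counted as 2-fold had both ratios at 2-fold or more and at least 20 reads in a library. No test was made, because each group has 1 library. Exact Clopper-Pearson intervals (95%) of the read ratio cover counting error only, and reads without molecular identifiers are not independent molecules.

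The lists (37, and 4 added after values were seen) and all members were chosen with earlier results of these data known. Named genes are the 15 highest and 15 lowest called rows with a mean of at least 1 RPKM and 50 reads (predicted genes and clones left out), the members of the FXR, bile acid and enhancer RNA lists, called and most abundant members of other lists, the strongest GW4064 responders in RNA-seq and the neighbours of Nr1h4. Genes outside the rule, named after their values were seen, are Rdh9, Cyp51, Srebf2, Cyp4a12a, Serpina1e, Igf1, Bcl6, Stat5b, Fads1, Fads3, Srebf1, Mlxipl, Cyp4a10, Cpt1a, Ppara, G6pc, Insr, Irs1, Irs2, Igfbp3, Capn8, Asap3, Rnf152, Gdf15, Klhdc7b, Ppl, Gm16551 and Ugt2a3. Settings varied were the added value, filters, density adjustment, quantile normalization, row length, minimum reads and fold, and the RNA-seq libraries used. The calculation was tested on simulated data. Python 3.11.15 was used with numpy, pandas, scipy and matplotlib. Values of a few single genes are not reported here, though list counts and medians include them.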

Additional observations from a re-analysis of the deposited data

Results flagged for a closer look

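For 8 of the genes reported here the FXR KO and Fxr-Flox libraries differed by at least 2-fold in opposite directions with vehicle and with GW4064. With 1 library per group the difference between the pairs was not tested. The log2 ratio of Serpina4-ps1 was -3.91 with vehicle and 1.49 with GW4064, and that of Onecut1 was -2.87 and 2.54. It was -1.61 and 1.84 for Gm16551, which lies beside Onecut1, and -1.46 and 1.49 for Ugt2a3, a glucuronosyltransferase gene. It was 1.17 and -1.44 for Gdf15, 1.04 and -3.32 for Cth, 1.40 and -1.16 for Elovl5, and 1.45 and -2.83 for Igfbp2. At Onecut1, Gm16551, Ugt2a3 and Serpina4-ps1 the Fxr-Flox vehicle library held the highest of the 4 GRO-seq levels, and at Gdf15, Cth, Elovl5 and Igfbp2 the Fxr-Flox GW4064 library did.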

How the results depend on the processing

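No paired analysis was possible because each genotype and treatment has 1 GRO-seq library and the vehicle pair shares no replicate number that marks a common mouse. The 104 higher and 97 lower rows became 41 and 35 with an added value of 1 RPKM and 399 and 383 at 1.5-fold. The lower rows numbered 160 with a filter at 0.1 RPKM, 164 with no filter and 59 among rows under 0.05 reads per base, where fewer rows were compared. Under the other settings both counts stayed within 1.5 times, at 81 to 144 higher and 68 to 129 lower. The median of female-biased genes was 1.64 with an added value of 1 RPKM, 1.33 with a filter at 0.1 RPKM and 0.82 with no filter, where more silent genes enter. That of known FXR-induced genes was 0.069 with median centring and 0.18 among rows under 0.05 reads per base, that of bile acid synthesis 0.10 without adjustment, 0.17 with median centring and 0.19 among sparse rows, and that of glucose genes -0.15 among sparse rows. The cholesterol synthesis median stayed above 0 throughout, from 0.54 to 0.81. Requiring a ratio of 1.5 in RNA-seq gave 308 raised and 217 lowered genes, with medians of -0.11 and 0.06, and 20 lowered genes were among rows under 0.05 reads per base. Leaving out each RNA-seq library in turn gave 116 to 148 raised genes with medians of -0.23 to -0.18, and 34 to 52 lowered genes with medians of -0.02 to 0.03. All 90 named genes called at 2-fold kept their direction under each setting in which they could be compared. Of these 84 stayed at 2-fold under every setting other than an added value of 1 RPKM, with which 38 of the 90 came under 2-fold, and the others, among them G6pc2, Gadd45a, Hp, Id2 and Scd1, did not. The settings with a running median of 51 rows and with rows that overlap no other row, and the level filter without the Fxr-Flox GW4064 library, were chosen after seeing the data.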
